A study of Homo sapiens with 7 samples.

Results

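KRT8, KRT18, KRT19, CDH1, EPCAM, CLDN4, CLDN7, OCLN, CTNNA1 and JUP encode keratins and cell adhesion proteins of epithelial cells. Their 10 rows, chosen by gene symbol, were taken from count tables that list 15659 gene symbols. The tables come from libraries labelled as HCT116, a human colorectal carcinoma line, carrying a DROSHA knockout. DROSHA is the nuclear enzyme that starts microRNA maturation, and its knockout is shared by both groups. DROSHA was still counted, with 20, 15 and 13 reads with miR-148a-3p and 31, 16 and 16 with the control miRNA, and reads near the 3′ end do not check a knockout whose position is not given. Knockout cells transfected with miR-148a-3p (3 libraries) were compared with knockout cells transfected with a control miRNA (3 libraries). Cells were harvested 48 h after transfection, and oligo-dT primers copied 500 ng of RNA from the poly(A) tail. The labels do not say whether the knockout line is a single clone or what sequence the control miRNA has. Nothing in them says that the replicates come from different cultures, so the p-values cover only how far these libraries differ, which can be technical variation.

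Keratins are intermediate filament proteins that polymerise as pairs of a type II and a type I chain. Of the 10 genes, KRT8 encodes the type II chain, and KRT18 and KRT19 encode the type I chains. These keratins occur in simple epithelia such as the gut lining. CDH1 (E-cadherin) joins neighbouring cells at adherens junctions, where CTNNA1 (alpha-catenin) links the cadherin complex to actin. JUP (plakoglobin) binds cadherins at adherens junctions and at desmosomes, the junctions to which keratin filaments are anchored. CLDN4, CLDN7 and OCLN are membrane proteins of tight junctions, which seal the space between cells, and EPCAM is an epithelial surface glycoprotein that binds CLDN7.

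The microRNA added to the cells is shown because its seed, bases 2 to 8, sets which messenger RNAs it can pair with. Matches to the seed in the messenger RNAs of the 10 genes were not searched for. The mature sequence is from RefSeq (GRCh38.p14, chr7:25949922-25949943, minus strand), written 5′ to 3′ with the seed in capitals. The mature sequences of miR-148b-3p and miR-152-3p, which were not transfected, are set beside it because they carry the same seed.
miR-148a-3p: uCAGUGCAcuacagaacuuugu
miR-148b-3p: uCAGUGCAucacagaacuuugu
miR-152-3p: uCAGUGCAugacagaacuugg

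The libraries held 630142 to 1564125 counts with miR-148a-3p and 876131 to 1069154 with the control miRNA. Each of the 10 genes had at least 1 read in all 6 libraries. On the first principal component, with 29.8% of the variance, miR-148a-3p replicate 3 lay at 34.2 and control replicate 1 at −31.4, and the other 4 libraries lay between −8.29 and 13.1. With edgeR's quasi-likelihood test, 1 of 8921 tested genes had an adjusted p below 0.05 (0.0112%), and that gene, MORF4L1, encodes a chromatin protein.

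At baseline, in the control miRNA libraries, the 10 genes spanned a wide range, with the type I keratins at the top and OCLN and CDH1 at the bottom. Levels are given in CPM, read counts scaled by TMM factors so that libraries of different size can be compared. Reads of these libraries start near the 3′ ends of transcripts, so CPM values were not divided by transcript length. KRT18 was measured at 1155 ± 107 CPM, KRT19 at 455 ± 71.4 CPM, CTNNA1 at 198 ± 18.6 CPM, KRT8 at 178 ± 27.3 CPM and JUP at 105 ± 13.4 CPM (SD, n = 3). CLDN4 followed at 71.9 ± 17.8 CPM, CLDN7 at 24.95 ± 4.03 CPM, EPCAM at 22.4 ± 8.93 CPM, OCLN at 6.90 ± 5.28 CPM and CDH1 at 6.62 ± 4.17 CPM. Among genes with a read in the control group, KRT18 ranked 93, KRT19 318 and CTNNA1 974, while EPCAM ranked 6820. In that order, CTNNA1 and KRT8, CLDN7 and EPCAM, and OCLN and CDH1 were neighbours whose ranges overlapped between the 3 control libraries. The other neighbours were separated in all 3 control libraries. With miR-148a-3p, KRT8 and JUP overlapped too, as did JUP and CLDN4.

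**Figure D1:**
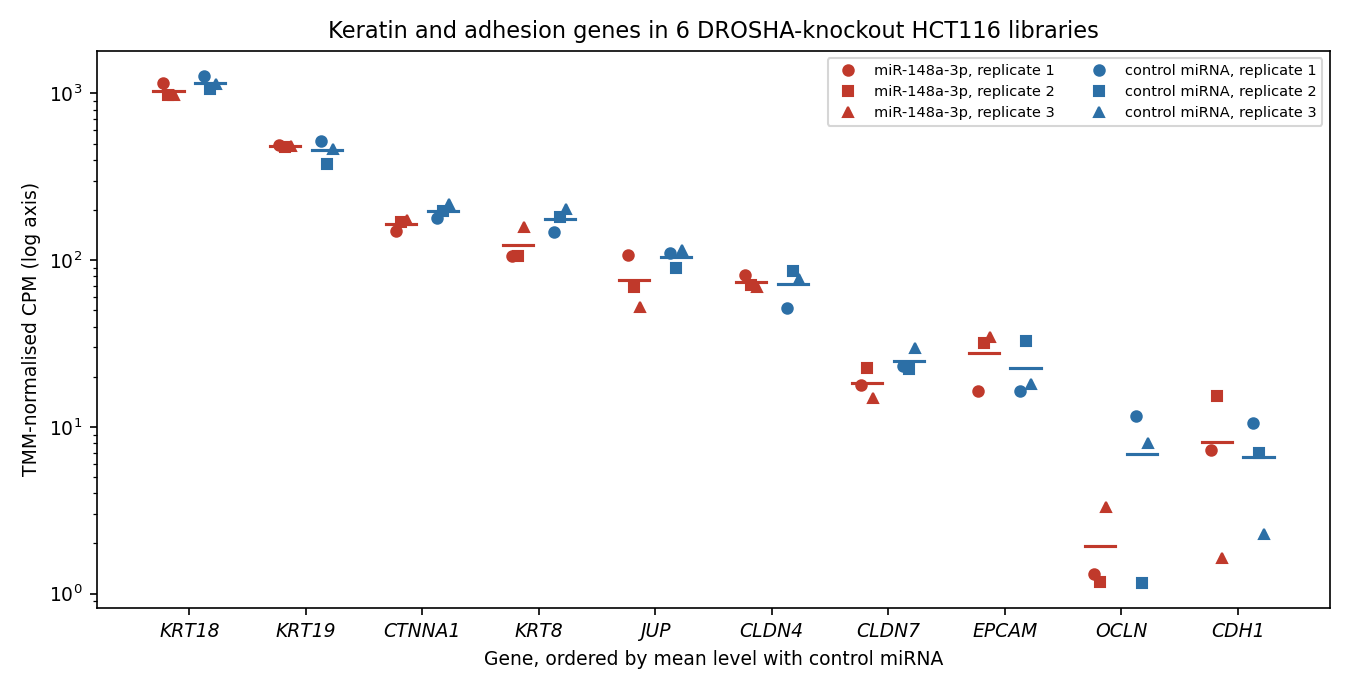
Normalised CPM (log axis) of each gene in the 3 miR-148a-3p libraries (red) and the 3 control miRNA libraries (blue), with symbols for replicate numbers and bars for group means. KRT18 lies at 978 CPM or more in every library, and CTNNA1 is the 1 gene whose groups do not overlap.

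None of these genes passed the test between miR-148a-3p and control miRNA. Of the 10 genes, 8 passed the filter on low counts and were tested, and CDH1 and OCLN did not. With edgeR 0 of the 8 passed (0.0112% of all genes did), and DESeq2 (0.0224% of all genes) and limma-voom (0.0336%) also called 0. At an unadjusted p below 0.05, each of the 3 tools gave 1 of the 8, KRT8, where edgeR gave 6.79% of all genes tested, DESeq2 5.01% and limma-voom 6.86%. Of the 8, 5 had a fitted log2 fold change below 0, against 50.5% of all genes tested. Their median was −0.21 on the log2 scale, beside −0.0039 over all genes tested.

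KRT8, the type II chain, was measured at 105, 105 and 158 CPM with miR-148a-3p, against 148, 182 and 202 CPM with the control miRNA. The first and second miR-148a-3p replicates lay below every control library, but the third lay above control replicate 1, so the groups overlapped. The means were 123 ± 30.4 CPM with miR-148a-3p and 178 ± 27.3 CPM with the control miRNA (SD, n = 3), a log2 fold change of −0.55 (SE 0.21). The edgeR adjusted p was 0.626, and it ranged from 0.191 to 0.971 over the alternatives tried. The 95% interval for the change ran from 0.504 to 0.927 of the control level, before adjustment for the number of genes. With 1 library left out the value lay between −0.75 and −0.44. Leaving out the libraries at the ends of the first component, the third miR-148a-3p replicate or the first control replicate, made it larger in size, at −0.75 and −0.67. Leaving out any of the other 4 made it smaller, at −0.44 and −0.45 for miR-148a-3p replicates 1 and 2 and −0.53 and −0.44 for control replicates 2 and 3.

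KRT18, the most abundant of the 10, was measured at 1158, 983 and 978 CPM with miR-148a-3p, against 1271, 1059 and 1135 CPM with the control miRNA. The first miR-148a-3p replicate lay within the control range and the other 2 lay below it. Its log2 fold change was −0.15 (SE 0.16; adjusted p = 0.895, edgeR), with a 95% interval from 0.715 to 1.13 of the control level.

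KRT19, the other type I chain, was measured at 488, 474 and 482 CPM with miR-148a-3p, against 519, 378 and 468 CPM with the control miRNA. All 3 miR-148a-3p values lay inside the control range. The spread was 7.01 CPM with miR-148a-3p and 71.4 CPM with the control miRNA (SD, n = 3). The log2 fold change was 0.08 (SE 0.17; adjusted p = 0.945, edgeR), and the 95% interval ran from 0.827 to 1.35 of the control level. Without control replicate 2 its sign changed, to −0.04.

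The 3 keratins together made up 81.6% of the reads of the 10 genes with miR-148a-3p and 80.3% with the control miRNA. Ratios of keratin reads within a library were computed because they need no scaling between libraries. KRT18 had 10.98, 9.34 and 6.19 reads per KRT8 read with miR-148a-3p, against 8.57, 5.82 and 5.61 with the control miRNA. The groups overlapped, and the difference of the mean log2 ratios was 0.39 (exact permutation test, two-sided, p = 0.2). With 3 libraries against 3 this test cannot give a p below 0.1.

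KRT19 had 4.63, 4.51 and 3.05 reads per KRT8 read with miR-148a-3p, against 3.50, 2.08 and 2.31 with the control miRNA, and these groups overlapped as well (exact permutation p = 0.2). The ratio of the type I chains, KRT18 to KRT19, was 2.37, 2.07 and 2.03 with miR-148a-3p, against 2.45, 2.80 and 2.43 with the control miRNA. Every miR-148a-3p library was lower than every control library in this ratio, with the smallest p the design allows (exact permutation test, two-sided, p = 0.1). Ratios of 4 kinds were computed, of which KRT18 to KRT8 was planned, and all 4 had a Benjamini-Hochberg adjusted p of 0.2. The 4th kind, both type I chains over KRT8 and KRT7, was 14.9, 12.8 and 8.96 with miR-148a-3p and 11.1, 7.60 and 7.42 with the control miRNA (exact permutation p = 0.2). Other keratins were not part of this ratio.

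**Figure D2:**
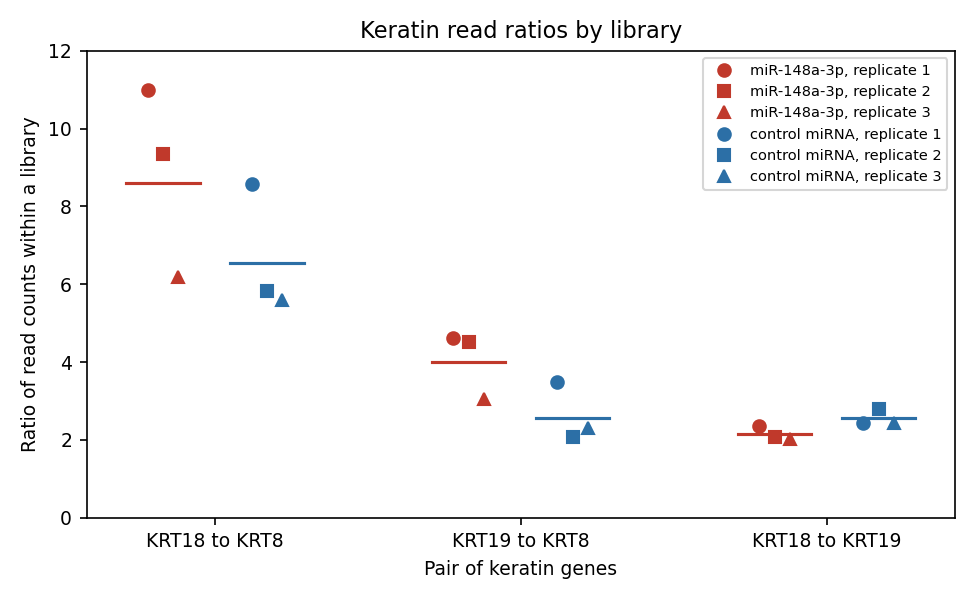
Ratio of read counts within each library for KRT18 to KRT8, KRT19 to KRT8 and KRT18 to KRT19, with miR-148a-3p libraries in red, control miRNA libraries in blue and bars at the geometric means. KRT18 to KRT19 is the 1 ratio of the 3 plotted whose groups do not overlap, at 2.03 to 2.37 with miR-148a-3p and 2.43 to 2.80 with the control miRNA.

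Pseudogenes and neighbouring genes bear on how keratin reads are assigned. Many processed copies of KRT8 and KRT18 are known in the human genome, and the tables list 3 rows named as KRT8 pseudogenes and 3 as KRT18 pseudogenes. KRT8P12 had the most reads of the first set, 7 over all 6 libraries and all in control replicate 2, and KRT18P19 had the most of the second, 3 in the same library. Adding these reads left the KRT8 log2 fold change at −0.57 (edgeR adjusted p = 0.590). Reads that matched several copies and were left out before counting cannot be seen in these tables. KRT8 (chr12:52897191-52949860, minus strand) and KRT18 (chr12:52948855-52952906) are adjacent and their RefSeq spans overlap by 1006 bases. That overlap lies at the 5′ end of KRT8, away from the 3′ end near which its reads start. KRT19 lies on another chromosome (chr17:41523617-41528308), as does JUP (chr17:41754609-41786711).

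CDH1 (chr16:68737292-68835537), the cadherin among the 10 genes, was scarce. It had 11, 13 and 1 reads with miR-148a-3p, against 11, 6 and 2 with the control miRNA, or 7.25, 15.4 and 1.65 CPM against 10.6, 7.0 and 2.28 CPM. The groups overlapped, and replicate 3 was the lowest library of each. Summed over the libraries of a group and scaled by raw totals, its counts gave 8.23 CPM with miR-148a-3p (exact Poisson 95% interval 5.33 to 12.2) and 6.70 with the control miRNA (4.03 to 10.5), intervals that cover counting error only. Fitted without the filter, the log2 fold change was 0.30 (SE 0.72; adjusted p = 0.945, edgeR). Its sign changed to −0.09 without control replicate 3 and to −0.41 without miR-148a-3p replicate 2, so no direction can be given at this depth. CDH3, a cadherin from the list of other adherens junction genes, stood above CDH1 in all 6 libraries. CDH3 was measured at 62.6 ± 15.2 CPM with miR-148a-3p and 59.9 ± 28.9 CPM with the control miRNA (SD, n = 3). Its log2 fold change was 0.08 (SE 0.30; adjusted p = 0.970, edgeR).

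CTNNA1 (chr5:138753425-138935034), the link from cadherins to actin, was measured at 150, 169 and 175 CPM with miR-148a-3p, against 180, 196 and 217 CPM with the control miRNA. Every miR-148a-3p library was below every control library. It was the 1 gene of the 8 tested without overlap, and 12.8% of all genes tested had none, so a share of this size is near the background. The means were 164 ± 13.1 CPM with miR-148a-3p and 198 ± 18.6 CPM with the control miRNA (SD, n = 3), a log2 fold change of −0.27 (SE 0.19; adjusted p = 0.807, edgeR). The 95% interval ran from 0.631 to 1.09 of the control level.

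JUP, the plakoglobin gene, was measured at 108, 68.6 and 52.7 CPM with miR-148a-3p, against 111, 89.8 and 115 CPM with the control miRNA. The first miR-148a-3p replicate lay in the control range and the other 2 below it. The log2 fold change was −0.41 (SE 0.25; adjusted p = 0.770, edgeR), with a 95% interval from 0.526 to 1.07 of the control level. It was −0.78 (adjusted p = 0.432) without miR-148a-3p replicate 1 and −0.23 without miR-148a-3p replicate 3. Replicate 3 of the miR-148a-3p group held the fewest counts of the 6 libraries, with 32 JUP reads.

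Among the tight junction genes, CLDN4 (chr7:73830996-73832690) was measured at 81.1, 71.0 and 69.1 CPM with miR-148a-3p, against 52.0, 86.3 and 77.4 CPM with the control miRNA. All 3 miR-148a-3p values lay inside the control range. The log2 fold change was 0.05 (SE 0.25; adjusted p = 0.980, edgeR), with a 95% interval from 0.727 to 1.48 of the control level. Its sign changed to −0.14 without control replicate 1 and to −0.03 without miR-148a-3p replicate 1.

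CLDN7 was measured at 17.8, 22.5 and 14.8 CPM with miR-148a-3p, against 23.1, 22.2 and 29.6 CPM with the control miRNA. The second miR-148a-3p replicate lay just above the lowest control library, and the other 2 lay below it. The log2 fold change was −0.43 (SE 0.40; adjusted p = 0.885, edgeR), and the 95% interval, from 0.422 to 1.31 of the control level, is wide at 9 to 27 reads a library. CLDN7 (chr17:7259903-7263213, minus strand) and ELP5, a subunit of the Elongator complex (chr17:7251724-7259940, plus strand), meet at their 3′ ends, where their RefSeq spans overlap by 38 bases. The use of strand in counting is not given in the sources used here, so reads at this shared end may be assigned to either gene. ELP5 was measured at 93.0 ± 14.4 CPM with miR-148a-3p and 79.8 ± 7.38 CPM with the control miRNA (SD, n = 3), above CLDN7 in all 6 libraries (log2 fold change 0.20, SE 0.23; adjusted p = 0.904, edgeR).

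OCLN (chr5:69492547-69558104) had 2, 1 and 2 reads with miR-148a-3p, against 12, 1 and 7 with the control miRNA. The miR-148a-3p libraries lay at 1.18 to 3.29 CPM, and control replicate 2 was as low, at 1.17 CPM, while control replicates 1 and 3 were high. Summed in the same way, the counts gave 1.65 CPM with miR-148a-3p (exact Poisson 95% interval 0.535 to 3.84) and 7.05 with the control miRNA (4.31 to 10.9), intervals that do not overlap but cover counting error only. Fitted without the filter, the log2 fold change was −1.92 (SE 1.02; adjusted p = 0.855, edgeR), and it stayed between −2.41 and −1.31 with 1 library left out. The spread between control libraries was thus as large as the difference, and the gene did not pass.

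EPCAM (chr2:47369311-47387020), the epithelial surface glycoprotein, was measured at 16.5, 31.9 and 34.6 CPM with miR-148a-3p, against 16.4, 32.7 and 18.2 CPM with the control miRNA. Libraries of both groups fell between 16.4 and 18.2 CPM or between 31.9 and 34.6 CPM, and replicate 2 was high in both. The log2 fold change was 0.26 (SE 0.41; adjusted p = 0.933, edgeR), with a 95% interval from 0.668 to 2.14 of the control level. Its 16 to 28 reads a library limit the precision.

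**Figure D3:**
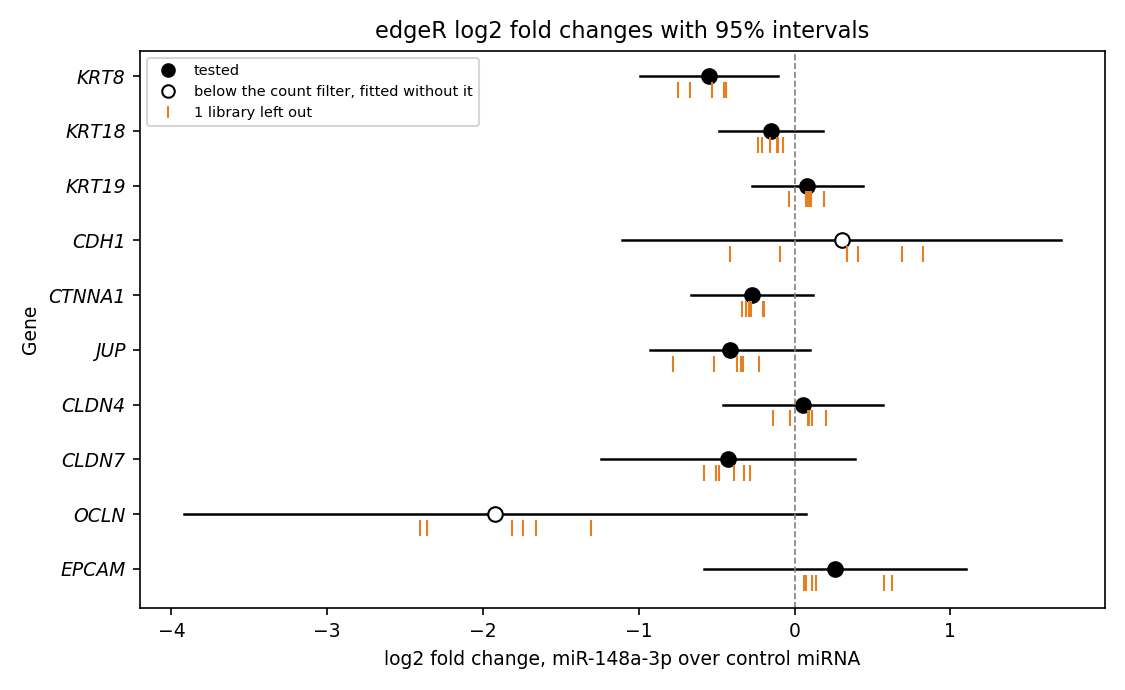
Log2 fold change of each gene, miR-148a-3p over control miRNA, with its 95% interval (line) and the values with 1 library left out (orange ticks); open circles are CDH1 and OCLN, which were fitted without the count filter. KRT8 is the 1 gene whose unadjusted interval lies wholly below 0, and ticks of KRT19, CLDN4 and CDH1 fall on both sides of 0.

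Summed over the 7 adhesion genes, the level was 382, 380 and 351 CPM with miR-148a-3p, against 405, 435 and 468 CPM with the control miRNA. The sums did not overlap, with means of 371 ± 17.4 CPM with miR-148a-3p and 436 ± 31.5 CPM with the control miRNA (SD, n = 3). CTNNA1 and JUP held most of these reads, and CTNNA1 alone did not overlap either, as in 12.8% of all genes tested. The 7 did not share a direction. EPCAM, CLDN4 and CDH1 had fitted log2 fold changes above 0 (0.26, 0.05 and 0.30, CDH1 without the count filter). CTNNA1, JUP, CLDN7 and OCLN had values below 0, OCLN also without the filter. The summed keratins were 1752, 1563 and 1618 CPM with miR-148a-3p and 1939, 1619 and 1805 CPM with the control miRNA, and they overlapped. These sums were not tested. The genes, here and in the tests of single genes and ratios, were chosen with earlier results known.

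The 5 tested genes whose pattern across the 6 libraries was closest to the mean of KRT8 and KRT18 were TBC1D1, GMEB1, GNL3, INSR and RRAGC. Likeness was the root mean square distance between log2 CPM values centred on each gene's own mean, and it ran from 0.0324 for TBC1D1 to 0.0644 for RRAGC. KRT8 and KRT18 themselves differed, so a gene close to their mean need not be close to either. Relative to its own mean, KRT8 was lowest in miR-148a-3p replicates 1 and 2 (−0.46 in both on the log2 scale), and KRT18 was lowest in replicates 2 and 3 (−0.15 and −0.16). KRT8 was highest in control replicate 3 (0.47), and KRT18 in control replicate 1 (0.22).

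The remaining genes of the keratin and junction system were read from lists of 90 genes, of which 69 had a read and 42 were tested. With edgeR 0 of the 42 passed (0.0112% of all genes did) and 1, CTNNAL1, had an unadjusted p below 0.05. DESeq2 and limma-voom also called 0, with 1 and 3 at an unadjusted p below 0.05. In the edgeR fit 28 had a fitted value below 0 and 14 above it, with a median of −0.10 beside −0.0039 over all genes tested. Of all genes tested, 50.5% had a value below 0, a share to be read beside the counts of each list below. Genes of a list share the same 6 libraries, so such counts are not independent and were not tested.

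Of 19 other keratins, 7 had a read and 2 were tested, 1 with a lower and 1 with a higher fitted value. KRT10, a type I keratin best known from differentiating epidermis, was measured at 38.1 ± 11.9 CPM with miR-148a-3p and 49.4 ± 5.28 CPM with the control miRNA (SD, n = 3). KRT81, a type II keratin of hair, was the most abundant of them, at 111 ± 23.3 CPM with miR-148a-3p and 82.1 ± 33.5 CPM with the control miRNA. It stood closer to KRT8 than any other type II keratin listed, and it did not pass (log2 fold change 0.46, SE 0.26; adjusted p = 0.746, edgeR). KRT7, the other simple-epithelium type II chain, was at 6.16 ± 1.84 CPM with miR-148a-3p and 11.4 ± 3.79 CPM with the control miRNA and was not tested. KRT20, the keratin of differentiated colon epithelium, had no row in any library.

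Tight junction genes other than the claudins and OCLN above were led by TJP1, the scaffold ZO-1, at 156 ± 25.5 CPM with miR-148a-3p and 167 ± 31.8 CPM with the control miRNA (SD, n = 3). Of 15 listed, 8 were tested, 4 with a lower and 4 with a higher fitted value. CGN, the cytoplasmic plaque protein cingulin, was at 13.8 ± 2.39 CPM with miR-148a-3p and 9.31 ± 2.15 CPM with the control miRNA (log2 fold change 0.53, SE 0.53; adjusted p = 0.891, edgeR). Its groups did not overlap, as in 12.8% of all genes tested. The claudins CLDN12 and CLDN15 had log2 fold changes of −0.31 (SE 0.47) and −0.36 (SE 0.51).

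Of 12 other adherens junction genes 9 were tested, 5 lower and 4 higher in the fit. CTNNAL1, an alpha-catenin-like protein, was measured at 210, 225 and 239 CPM with miR-148a-3p, against 331, 282 and 265 CPM with the control miRNA. The groups did not overlap (as in 12.8% of all genes tested), and the gene did not pass (log2 fold change −0.39, SE 0.18; adjusted p = 0.725, edgeR). As for CTNNA1, which did not pass either, every miR-148a-3p library lay below every control library. CTNND1, the catenin p120 that stabilises cadherins, had 0.24 (SE 0.20), and NECTIN3, an immunoglobulin-like adhesion protein, had −0.19 (SE 0.21).

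Among desmosome genes, DSP, desmoplakin, which anchors keratin filaments, was measured at 307 ± 18.2 CPM with miR-148a-3p and 331 ± 46.9 CPM with the control miRNA (SD, n = 3). Of 12 listed 7 were tested, 5 lower and 2 higher in the fit. The desmosomal cadherins DSG2 and DSC2 had −0.31 (SE 0.20) and −0.34 (SE 0.23), and PPL, periplakin, had 0.77 (SE 0.59). The groups of DSC2 did not overlap, as in 12.8% of all genes tested. Among 8 hemidesmosome genes and keratin linkers, 6 were tested and 5 had a lower fitted value. DST, which links keratins to hemidesmosomes, was at 358 ± 57.8 CPM with miR-148a-3p and 457 ± 49.0 CPM with the control miRNA (log2 fold change −0.36, SE 0.18; adjusted p = 0.726, edgeR). ITGA6, an integrin of hemidesmosomes, had −0.17 (SE 0.19) and PLEC, plectin, −0.17 (SE 0.25).

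**Figure D4:**
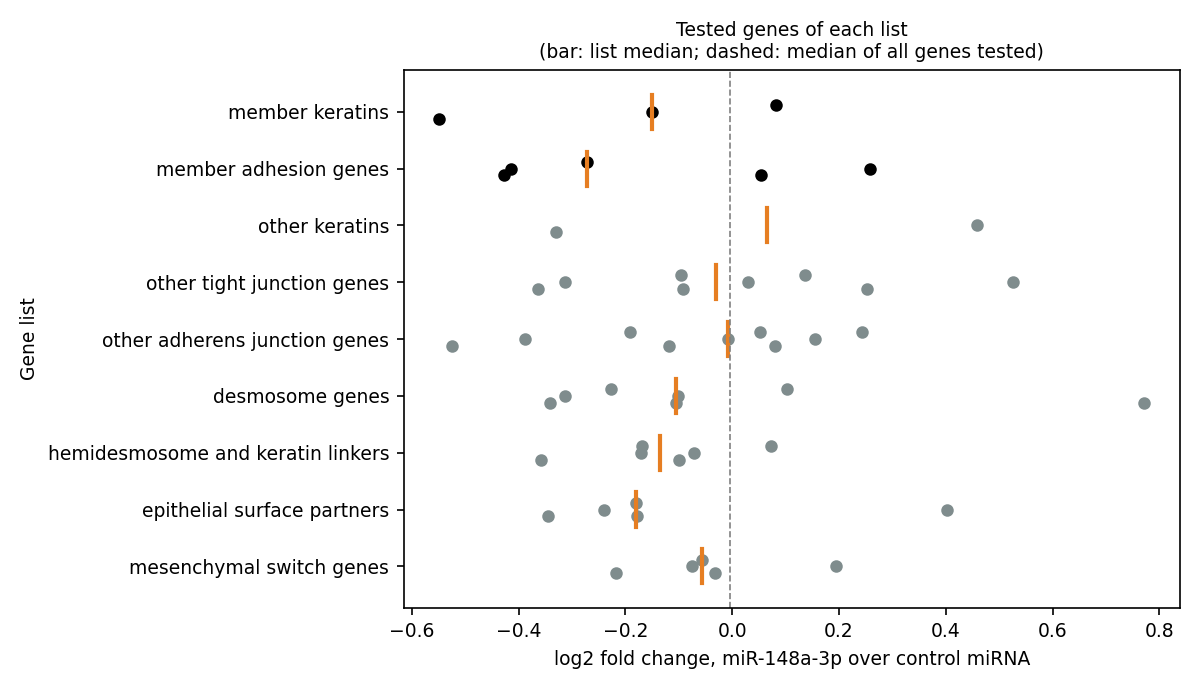
Log2 fold change, miR-148a-3p over control miRNA, of each tested gene in the lists (points; black for the 8 tested of the 10 keratin and adhesion genes), with each list's median (orange bar) and the median of all genes tested (dashed line). List medians lie between −0.27 and 0.06, and no gene shown passed the threshold.

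Epithelial regulators and surface partners were mostly scarce, with 5 of 14 tested, 4 lower and 1 higher in the fit. EHF, an epithelial ETS factor, was the most abundant, at 64.7 ± 7.47 CPM with miR-148a-3p and 73.9 ± 11.1 CPM with the control miRNA (SD, n = 3). SPINT1 and SPINT2, membrane inhibitors of serine proteases, had log2 fold changes of 0.40 (SE 0.53) and −0.35 (SE 0.35).

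VIM and SPARC, used as markers of the mesenchymal state, were more abundant than any of the 10 genes in all 6 libraries. VIM, vimentin, the intermediate filament protein of mesenchymal cells and of many cultured lines, was measured at 1565, 1730 and 1869 CPM with miR-148a-3p, against 1615, 1729 and 1936 CPM with the control miRNA. The groups overlapped. SPARC, a secreted matrix protein, was at 1628 ± 364 CPM with miR-148a-3p and 1717 ± 96.8 CPM with the control miRNA (SD, n = 3). ZEB1, a repressor of CDH1, was at 95.2 ± 17.98 CPM with miR-148a-3p and 111 ± 5.07 CPM with the control miRNA, above CDH1 in all 6 libraries. ZEB1 had a log2 fold change of −0.22 (SE 0.22) and FN1, fibronectin, of 0.20 (SE 0.33). Of 10 listed 5 were tested, 4 lower and 1 higher in the fit, and 0 passed with edgeR.

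**Figure D5:**
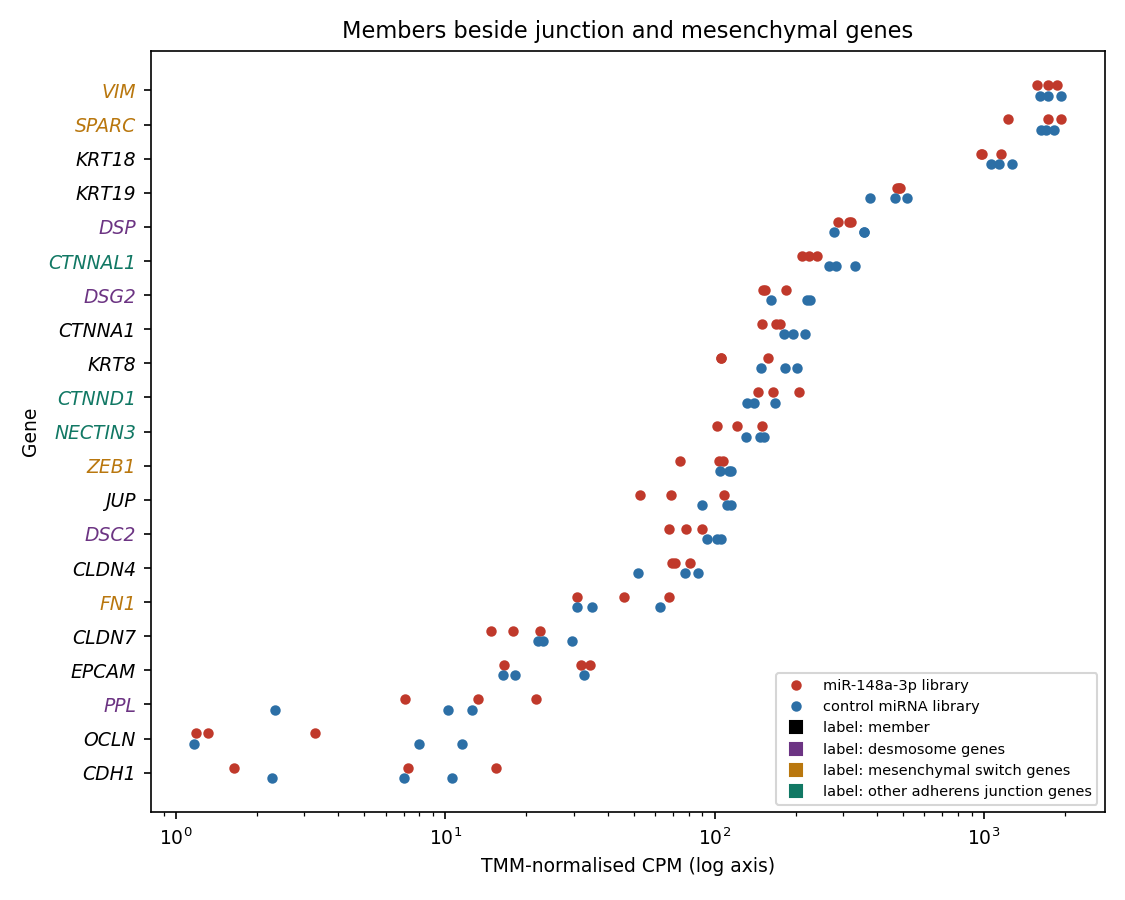
Normalised CPM (log axis) of the 10 genes (black labels) beside named desmosome, adherens junction and mesenchymal genes, with the miR-148a-3p libraries (red) above the control miRNA libraries (blue) in each row. VIM lies above KRT18 in all 6 libraries, and CDH1 and OCLN are the lowest genes shown by mean control level.

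EPCAM and CDH1, defining markers of epithelial cells, averaged 27.7 and 8.09 CPM with miR-148a-3p and 22.4 and 6.62 CPM with the control miRNA, far below VIM and SPARC. Other genes of both kinds went the other way. With the control miRNA, KRT18 and KRT19 averaged 1155 and 455 CPM. The mesenchymal genes TWIST1, SNAI1, SNAI2 and ZEB2 averaged 21.4, 11.4, 8.80 and 0.758 CPM there. HCT116 as the source rests on the labels, and the identity of the line was not tested. Markers of other cell types were read beside these. Of 12 markers of differentiated colon epithelium 5 had a read, summing to 21.3 to 41.2 CPM with miR-148a-3p and 34.7 to 73.5 CPM with the control miRNA, mostly from CDX2, and KRT20, CDX1, MUC2 and CEACAM5 had no row. The groups' ranges of that sum overlapped. Of 12 fibroblast and endothelial markers 5 had a read, at 33.1 to 64.2 CPM with miR-148a-3p and 39.7 to 81.9 CPM with the control miRNA, mostly from COL1A1, while DCN, LUM, PDGFRA and CDH5 had no row. Of 12 blood cell markers 4 had a read, at 3.29 to 15.8 CPM with miR-148a-3p and 6.74 to 9.10 CPM with the control miRNA, and PTPRC had no row. The part of these cell types in the levels above was not tested. In bulk libraries, fewer cells of a type and less RNA per cell cannot be told apart.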

How the data were processed

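Each of the 6 poly(A) 3′ end libraries has its own table of unnormalised counts by gene symbol, as deposited by the authors. A gene missing from a table was given a count of 0. The tools cutadapt, STAR and Bowtie2 and the build GRCh38 are named, per the submitters' processing notes. The sources used here do not give the counter, the annotation or the strand setting. The main test was that of edgeR 4.0.16, run in R 4.3.3 (TMM factors, filterByExpr with a minimum count of 10, quasi-likelihood F test, group as the only term, Benjamini-Hochberg over 8921 genes, threshold 0.05). The SE is the size of the log2 fold change divided by the square root of F, and 95% intervals use edgeR's total degrees of freedom. Alternatives used DESeq2 1.42.0 and limma 3.58.1, other size factors, no filter, a replicate block, added pseudogene reads and 1 library left out. Permutation tests used scipy 1.17.1. The scripts were tested on simulated data. Library pairs within a group differed by 2.52 to 5.30 times Poisson variance. The 10 genes and the lists were chosen with earlier results of these data known. Named genes were all 10, plus from each other list those past the threshold, the 3 with the smallest p and the most abundant. The 5 closest in pattern to the mean of KRT8 and KRT18 were named too. KRT7, KRT20, CDH3, ELP5, DROSHA, TWIST1, SNAI1, SNAI2, ZEB2 and the marker genes were named after their values were seen. Coordinates are RefSeq gene spans (GRCh38.p14). The small RNA library was not used here.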

Additional observations from a re-analysis of the deposited data

How the results depend on the processing

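Across the alternatives tried, 0 of the 10 genes passed the threshold in any, and the KRT8, KRT18, CTNNA1, JUP, CLDN7, OCLN and EPCAM log2 fold changes kept their sign in all of them. KRT19 (−0.037 to 0.19), CLDN4 (−0.14 to 0.20) and CDH1 (−0.41 to 0.83, without the count filter) changed sign with 1 library left out. The count of genes called among all tested was 1, and it was 2 with total counts only, 2 with DESeq2, 3 with limma-voom, 18 without the count filter, and 1 to 26 with 1 library left out, the highest without control replicate 1. Fitting CDH1 and OCLN without the filter under the other alternatives was added after seeing the data. Whether replicate numbers pair the libraries was not settled. Same-numbered deviations correlated at 0.133, 0.0930 and −0.00185. Replicates 1 and 2 correlated best with their own number, and replicate 3 did not. Deviations from a mean of 3 libraries depend on each other, so these correlations cannot exclude pairing. With the replicate block, 3 genes were called, none of the 10, and KRT8 had −0.54 (edgeR adjusted p = 0.427), while the paired difference of the KRT18 to KRT8 log2 ratio was 0.39 (exact sign permutation p = 0.25, the smallest possible). That ratio difference was 0.22 to 0.63 with 1 library left out. Depth limits CDH1 and OCLN, at 1 to 13 reads a library.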
